A study of Rattus norvegicus with 12 samples.

Results

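The comparison is of vascular smooth muscle cells stimulated through a thrombin receptor after pertussis toxin, which uncouples receptors from Gi proteins. It rests on 4 of the 12 arrays of the series, chosen by their titles: 2 arrays from cells pretreated for 24 h with 200 ng/ml pertussis toxin (PTX) and then given 25 µM TRAP, a peptide agonist of thrombin receptors, for 120 min, and 2 basal arrays named for the same experiment. The cells were primary cultures of aortic smooth muscle from newborn rats of unnamed strain, kept overnight in serum-free medium with albumin before stimulation. The labels give no agent for the basal cells and do not say whether these had the toxin, so an effect of 24 h of PTX and an effect of 120 min of TRAP cannot be told apart in this comparison. No array labelled as PTX alone is among the 12 used here. The other 8 arrays, used here for the estimate of the spread and for comparison, are 2 each of cells before and 120 min after TRAP at 25 µM without the toxin, and of cells before and 120 min after thrombin at 2 U/ml. Whether the 2 arrays of a group stem from separate cultures is not in the labels, and the p-values speak of the spread among these samples alone, which may be technical.

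Thrombin acts on cells by cutting protease-activated receptors, and TRAP is a short peptide that mimics the end so exposed and activates the receptor without the protease. These receptors couple to Gq, to G12 and G13, and to Gi. Gq raises calcium and activates protein kinase C, G12 and G13 act on the actin cytoskeleton, and Gi lowers cyclic AMP and feeds the MAP kinase cascade. Pertussis toxin modifies the alpha subunits of Gi so that receptors no longer engage them, and leaves Gq, G12 and G13 alone. In the vessel wall, thrombin receptors on smooth muscle are known for contraction, proliferation, and secretion of growth factors and chemokines after injury.

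Values are signals of the arrays on a linear scale and in arbitrary units, with every array scaled to a like mean, and changes are differences in log2(signal + 16), which understates the changes of dim genes. A gene was called when limma's test over all 18625 probe sets bright enough to be tested gave an adjusted p below 0.05 (Benjamini-Hochberg). Some lists also carry a count at an unadjusted p below 0.05. The share of all genes at that threshold is not given, so these list counts have no background beside them. Levels of different genes are not compared, since probe sets differ in brightness. Of 20 contractile smooth muscle markers on the array 18 were bright enough to be tested, while 9 of 12 endothelial, 11 of 14 leukocyte and 7 of 8 adipocyte markers on the array were too dim to be tested. The endothelial genes Pecam1 and Nos3 lay between 1.3 and 12.1 on the 4 arrays and the leukocyte gene Ptprc between 0.4 and 11. Other members of these lists were brighter. Cd14 of the leukocyte list had 352 and 297 on the basal arrays and 317 and 398 on the stimulated arrays. Egfl7 of the endothelial list had 94.7 and 123 on the basal arrays and 86.5 and 134 on the stimulated arrays, and Flt1 of that list is given below. Of 10 fibroblast markers on the array 7 were bright enough to be tested, among them Dcn, with 2422 and 2225 on the basal arrays. None of the 7 was called by limma or had an unadjusted p below 0.05. Their summed signal was 10144 and 10106 on the basal arrays against 10151 and 9846 on the stimulated arrays. Over the tested probe sets the basal arrays correlated with each other at r = 0.983 and the stimulated arrays at r = 0.986. Stimulated replicate 1 correlated more closely with replicate 2 of TRAP without toxin (r = 0.990), and stimulated replicate 2 with replicate 1 of TRAP without toxin (r = 0.987).

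The 2 stimulated arrays differ in genes of inflammation and of cell division, and replicate 1 went against the basal arrays of its own experiment there. Saa3, an acute-phase protein gene, had a signal of 421 and 375 on the basal arrays and 20.3 and 238 on the stimulated arrays, with the low value on replicate 1. Lcn2, which encodes an iron-scavenging protein of the acute phase, had 360.2 and 275 on the basal arrays and 20.4 and 309.7 on the stimulated arrays. The basal arrays and stimulated replicate 2 were thus high in both genes and stimulated replicate 1 was at the level of the basal TRAP arrays without toxin, which had 18.1 and 15.9 for Saa3. The division gene Mki67 went the other way, with 515 and 608 on the basal arrays and 943 and 539 on the stimulated arrays, and so did Top2a, which encodes a topoisomerase of dividing cells, with 474 and 565 on the basal arrays and 831 and 438 on the stimulated arrays. The same split runs through the TRAP experiment, where stimulated replicate 1 resembled the high arrays in Saa3 (222.5 against 22.8 for replicate 2). The same crossing was seen in other genes: Lbp measured 1508 and 678 with TRAP and 617 and 1571 with TRAP after PTX, Cxcl1 5355 and 1333 with TRAP and 1238 and 6275 with TRAP after PTX, Akap12 1568 and 3729 with TRAP and 3365 and 1503 with TRAP after PTX and Fosl1 699 and 1049.7 with TRAP and 1082 and 536 with TRAP after PTX. In each of these, stimulated replicate 1 of one experiment lay nearer to replicate 2 of the other than to its own replicate. Other genes went by label: Herc1 measured 102.5 and 75.8 with TRAP and 193 and 193 with TRAP after PTX. In the same order Nfix measured 815 and 671 against 1211 and 1264, and Ccn1 834 and 766 against 1268 and 1262. Herc1 and Nfix are among the genes named below for a difference between these responses. Whether the 2 stimulated replicate 1 arrays carry each other's labels was not tested; if they do, replicate 1 of this comparison is an array without toxin. The labels are used as given, and the counts for most gene lists are given also without stimulated replicate 1 or without replicate 1 of both TRAP experiments.

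**Figure D1:**
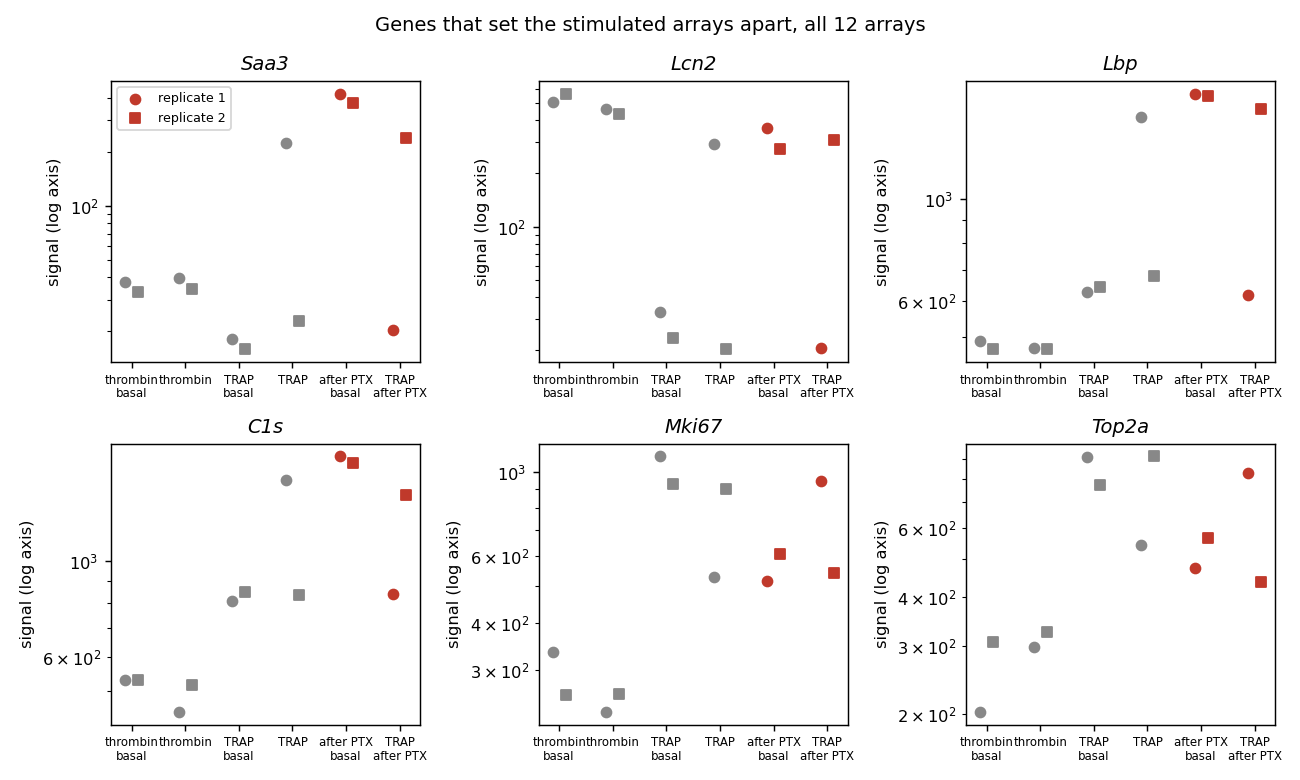
Signal (log axis) of 4 acute-phase genes (Saa3, Lcn2, Lbp and C1s) and 2 cell division genes (Mki67 and Top2a) on each of the 12 arrays, in red for the basal and stimulated arrays of the PTX experiment and grey for the rest. A circle is replicate 1 and a square replicate 2; stimulated replicate 1 after PTX lies at 20.3 in Saa3 and 943 in Mki67, while replicate 2 lies at 238 and 539.

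With TRAP after PTX, 167 of 9906 tested genes (1.69%) were higher than in the basal cells and 126 (1.27%) lower, and 47 of the raised and 20 of the lowered genes moved by at least 2-fold. Among the largest rises were the transcription factor genes Fosl1 and Egr1, the circadian gene Noct, the kinase scaffold gene Akap12, the kinase gene Sgk1 and the cytokine gene Tslp. The largest falls were in Rasl12, a small GTPase gene, Bambi, which encodes a receptor-like blocker of BMP and TGF-beta, and Klf15, a metabolic transcription factor gene. Of the 12 arrays, Rasl12 was high only on the 2 basal arrays of this experiment. Counted by probe set, 313 rose (1.68% of 18625) and 192 fell (1.03%). Without stimulated replicate 1 the numbers were 110 and 39, and without stimulated replicate 2 they were 199 and 93; without basal replicate 2 they were 147 and 44, and without basal replicate 1 they were 206 and 159. Centring each array on its median moved the median change of all probe sets by 0.102 and the share of rises among the calls from 62% to 81.6%, so the number that fell depends on the scaling. The median of a gene list is given beside the all-gene median of -0.04, and some list medians of 0.07 or less in size changed sign under centring or quantile normalization.

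Of the 293 called genes (2.96% of those tested), 57 of the raised (34.1%) and 14 of the lowered (11.1%) were also called in each of the 4 fits that leave out 1 array of the comparison. Both stimulated arrays lay above both basal arrays in 16.8% of all tested genes and below both in 28.8%, so such a separation is common in this comparison, called or not. Among raised genes the change was larger on stimulated replicate 1 in 116 and on replicate 2 in 51, with medians of 0.82 and 0.67. In the lowered genes the medians were -0.70 and -0.66. Only 4 called genes differed by more than 1 on the log2 scale between the 2 stimulated arrays, and all 4 were raised genes: Cxcl1, Nfkbiz, Akap12 and Nr4a3. The test favours genes whose replicates agree, so this small number follows in part from the calling.

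**Figure D2:**
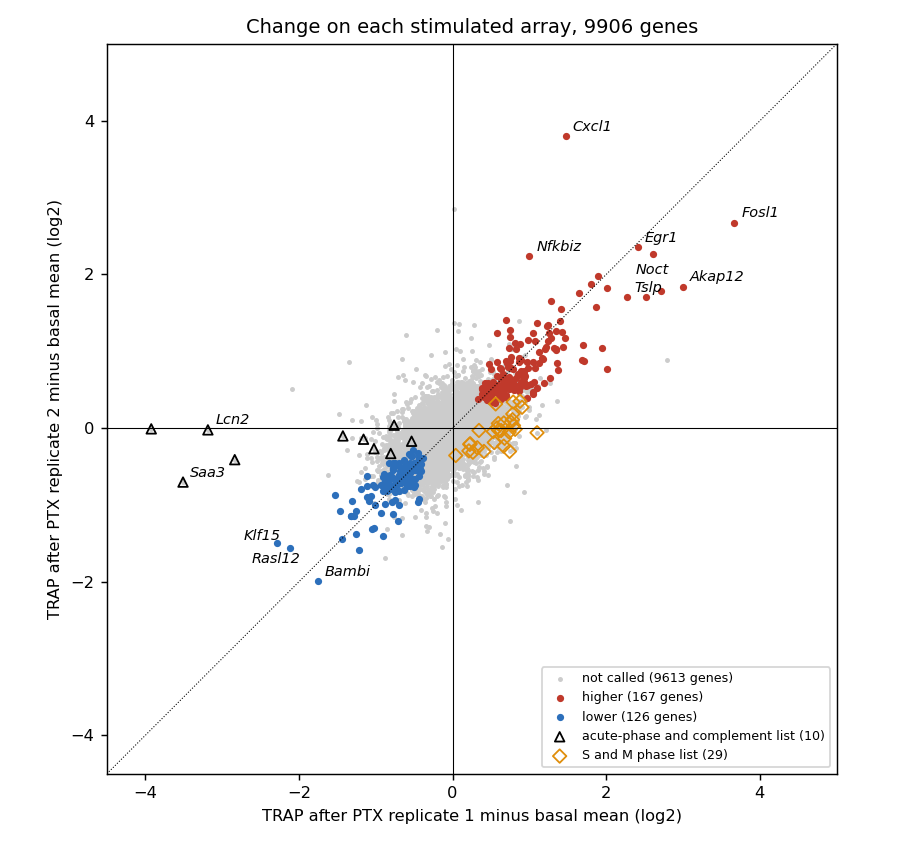
Change (log2) of 9906 genes on stimulated replicate 1 (x axis) and replicate 2 (y axis), each against the mean of the 2 basal arrays, with called genes in red (167 higher) and blue (126 lower). Called genes lie near the dotted diagonal of equal change, in part because the test favours genes whose replicates agree. The 10 acute-phase and complement genes (triangles) had medians of -1.29 and -0.16 on replicates 1 and 2. The 29 S and M phase genes (diamonds) had 0.63 and -0.03.

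Immediate-early transcription factors, which are made within minutes to hours from genes already poised for it, had more calls than any other list: 14 of 35 tested members rose (background 1.69%) and none fell, with a median change of 0.53 beside -0.04 over all genes. Another fit leaves out stimulated replicate 1 here and that of TRAP, the 2 arrays that differ from their own basal arrays in Saa3. It is called below the fit without both replicate 1 arrays, and the list median there was 0.50. With 1 stimulated array left in each TRAP experiment, it calls fewer probe sets over all genes. A lower list count in that fit is thus not particular to the list. Fosl1, which encodes an AP-1 subunit that partners Jun, had a signal of 71.1 and 69.7 on the basal arrays and 1082 and 536 on the stimulated arrays. It rose by 3.17 ± 0.25 (SE, log2; adjusted p = 1.18e-05), and by 2.67 without stimulated replicate 1. Egr1, the founding member of a family of zinc-finger factors, had 599 and 602 on the basal arrays and 3261 and 3139.8 on the stimulated arrays. Its rise of 2.38 ± 0.11 had the smallest adjusted p of all tested genes, 9.92e-08, and the replicates of each group nearly coincided. Egr2, a relative of Egr1, went from 17.2 and 33.4 to 134 and 144 (1.94 ± 0.20, adjusted p = 0.00015).

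Among the other AP-1 genes, Junb rose from 367 and 275 to 702 and 848 (1.24 ± 0.14, adjusted p = 0.000334), while Jun rose by 0.79 and Jund at 0.49 did not pass the test. Maff, a small Maf protein that pairs with other leucine-zipper factors, rose from 99.7 and 76.6 to 227 and 243 (1.28 ± 0.13, adjusted p = 0.000148). Both groups stood clear of each other in these genes, and the stimulated arrays did so upward in 16.8% of all tested genes. Ier2, an immediate-early nuclear protein gene, rose from 367 and 312 to 965 and 783 (1.32 ± 0.13, adjusted p = 7.47e-05). Id3, which encodes an inhibitor of helix-loop-helix factors, rose from 1318 and 1296 to 2729 and 3097 (1.14 ± 0.10, adjusted p = 4.24e-05). Its relatives did not follow: Id1 measured -0.49 (adjusted p = 0.0572) and Id2 -0.44 (adjusted p = 0.219). The orphan nuclear receptor gene Nr4a1 went from 91 and 75.1 to 364 and 187 (1.49 ± 0.24, adjusted p = 0.00417), a change of 1.04 without stimulated replicate 1. Nr4a3 went from 93.7 and 64.1 to 360.2 and 144 (1.39 ± 0.33, adjusted p = 0.0428) and kept its call in 9 of 26 alternative fits, with 0.77 without stimulated replicate 1. In both Nr4a genes stimulated replicate 1 was the higher array. The ETS factor genes Ets2 (1.14) and Ets1 (0.80) rose too. Klf9 rose by 0.65.

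Several of the largest changes lay outside the gene lists. Olr1, which encodes a receptor for oxidised LDL, rose from 75.1 and 135 to 268 and 352 (1.46 ± 0.23, adjusted p = 0.00419), and Tnfaip6, which encodes a hyaluronan-binding protein of inflammation, from 468 and 424 to 1162 and 1088 (1.30 ± 0.10, adjusted p = 9.4e-06). Both stood clear of their basal arrays, which was a condition for being named among the largest rises. The less characterised C9h6orf141 (2.11), Lnc215 (1.84), Vof16 (1.48), Fam43a (1.4) and Phlda1 (1.34) rose as well. Among the falls, Otub2, a deubiquitinase gene, went from 302 and 327 to 98.6 and 164 (-1.20 ± 0.18, adjusted p = 0.00225), L3mbtl3, a reader of methylated histones, from 178 and 170.2 to 76.1 and 60.3 (-1.18 ± 0.15, adjusted p = 0.000655), and Lurap1l from 1354 and 1436 to 576 and 650.2 (-1.17 ± 0.12, adjusted p = 0.000133). Gramd1b, a sterol carrier gene, fell from 37.3 and 41.9 to 7.2 and 5.4 (-1.32 ± 0.27, adjusted p = 0.0189), values at the dim end of the tested range. Ift70b (-1.23), Llgl2 (-1.21, or -0.77 without basal replicate 1) and Cables1 (-1.15) fell too. Another, dimmer probe set had a smaller change and was not called in L3mbtl3 (-0.39), Otub2 (-0.54), Gramd1b (-0.31), Tnfaip6 (0.65) and C9h6orf141 (0.88). In Lnc215 (1.05) and Vof16 (1.58) the other probe set was called.

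**Figure D3:**
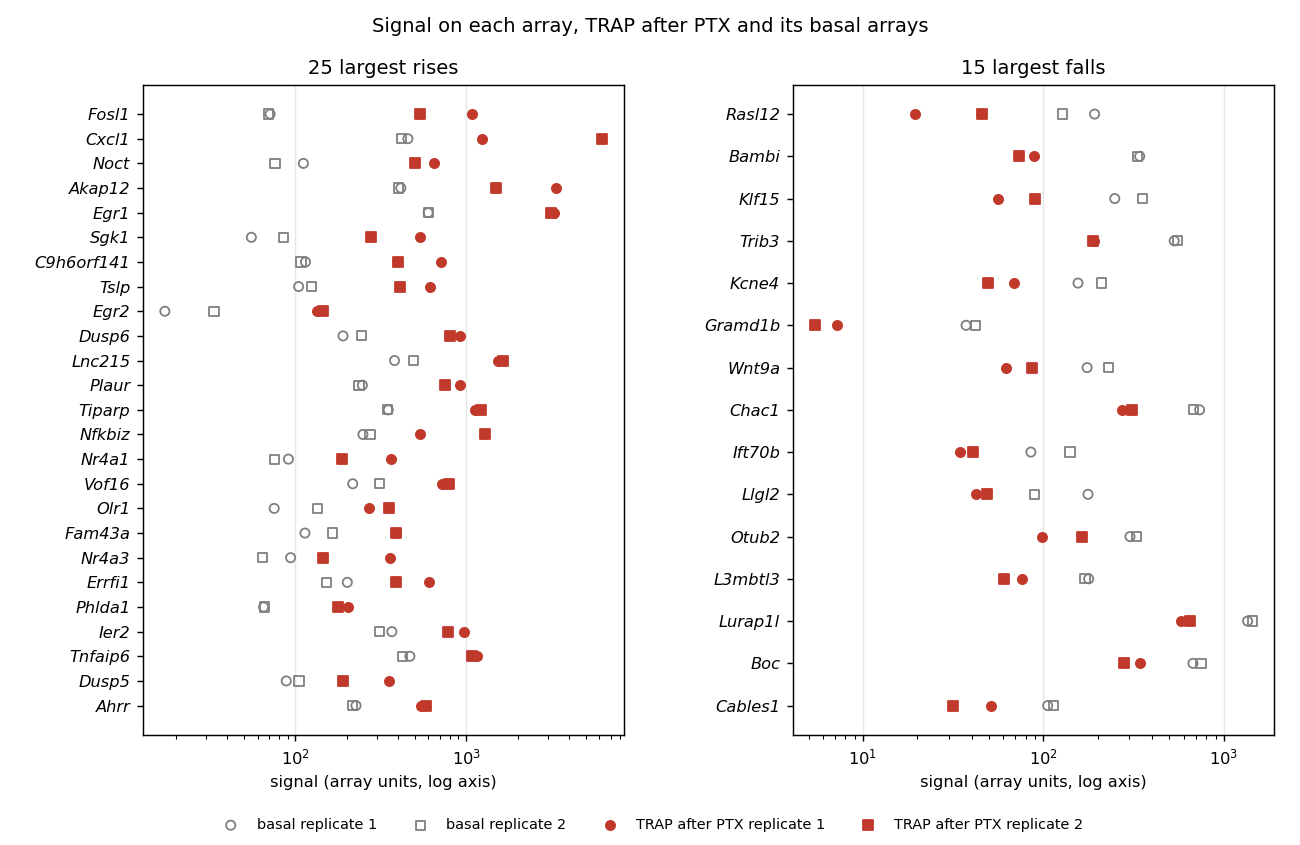
Signal (log axis) on each of the 4 arrays for the 25 genes with the largest rise (left) and the 15 with the largest fall (right) among called genes. Grey open symbols are basal and red filled symbols are stimulated arrays, with circles for replicate 1 and squares for replicate 2; the red pair of Fosl1 lies at 1082 and 536, right of the grey pair at 71.1 and 69.7.

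The promoters of 6 raised genes are shown because they carry, within 250 bases before and 50 bases after the start of the gene, letters of sites for factors that these receptors are known to act on. They come from RefSeq on build GRCr8, each written 5′ to 3′ along its gene with the named letters in capitals. Egr2 (chr20:21054392-21054691, minus strand) and Dusp5 (chr1:262543524-262543823, plus strand) hold the CArG box, the site of serum response factor, 1 match and 2 matches respectively. Maff (chr7:112792537-112792836, plus strand) and Ier2 (chr19:40399123-40399422, plus strand) hold TGACGTCA, the full cyclic AMP response element. Plaur (chr1:89181113-89181412, plus strand) holds TGANTCA, the AP-1 site, and Cxcl1 (chr14:17479272-17479571, minus strand) the kappa B consensus, with 2 overlapping matches.
Egr2: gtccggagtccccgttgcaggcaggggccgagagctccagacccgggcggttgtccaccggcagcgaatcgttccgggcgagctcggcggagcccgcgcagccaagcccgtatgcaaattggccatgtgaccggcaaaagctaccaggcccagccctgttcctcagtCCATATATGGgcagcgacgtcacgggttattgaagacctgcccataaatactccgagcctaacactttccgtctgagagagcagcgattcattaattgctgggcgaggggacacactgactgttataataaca
Dusp5: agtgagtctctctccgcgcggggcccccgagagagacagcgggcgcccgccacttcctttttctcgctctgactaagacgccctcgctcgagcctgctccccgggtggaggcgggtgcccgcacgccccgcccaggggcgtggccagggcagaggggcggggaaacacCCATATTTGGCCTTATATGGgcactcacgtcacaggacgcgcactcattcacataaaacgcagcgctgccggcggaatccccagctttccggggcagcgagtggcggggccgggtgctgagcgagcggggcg
Maff: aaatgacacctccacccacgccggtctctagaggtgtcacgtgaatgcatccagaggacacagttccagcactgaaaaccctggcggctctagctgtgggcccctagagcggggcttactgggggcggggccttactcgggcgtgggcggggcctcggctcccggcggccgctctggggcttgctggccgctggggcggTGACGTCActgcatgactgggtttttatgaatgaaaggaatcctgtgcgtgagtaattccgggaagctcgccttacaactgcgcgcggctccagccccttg
Ier2: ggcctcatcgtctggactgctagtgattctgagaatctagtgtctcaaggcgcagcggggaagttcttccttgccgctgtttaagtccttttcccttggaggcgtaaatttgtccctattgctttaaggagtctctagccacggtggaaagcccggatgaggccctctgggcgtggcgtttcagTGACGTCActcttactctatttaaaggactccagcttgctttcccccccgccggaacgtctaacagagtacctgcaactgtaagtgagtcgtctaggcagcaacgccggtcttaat
Plaur: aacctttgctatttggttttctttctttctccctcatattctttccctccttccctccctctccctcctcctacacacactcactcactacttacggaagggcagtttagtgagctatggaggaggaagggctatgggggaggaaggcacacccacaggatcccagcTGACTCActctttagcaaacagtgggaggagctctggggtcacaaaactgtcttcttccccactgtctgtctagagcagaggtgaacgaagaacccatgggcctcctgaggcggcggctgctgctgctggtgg
Cxcl1: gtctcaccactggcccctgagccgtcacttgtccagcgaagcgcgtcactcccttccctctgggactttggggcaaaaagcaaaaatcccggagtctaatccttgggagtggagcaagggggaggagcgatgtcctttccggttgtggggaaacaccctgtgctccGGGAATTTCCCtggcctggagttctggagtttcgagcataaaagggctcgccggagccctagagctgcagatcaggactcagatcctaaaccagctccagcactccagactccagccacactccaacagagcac

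Both strands were searched, and promoters were matched by gene number for 146 of the 167 raised, 107 of the 126 lowered and 8320 of the 9906 tested genes. A gene counts as holding a motif if any of its listed windows does. The full element TGACGTCA stood in 4.11% of raised, 0.935% of lowered and 3.59% of tested genes (1.83% of all 33469 promoters), and its core TGACG, which the full element contains, in 43.8%, 28% and 34.7% (21.2%). TGANTCA stood in 10.3%, 2.8% and 5.07% (7.33%), the CArG box in 2.74%, 0.935% and 1.53% (1.64%), and the kappa B consensus in 8.9%, 4.67% and 5.2% (4.18%). GCGTG, the core of the site of the aryl hydrocarbon receptor, stood in 53.4%, 57% and 52.8% (29.7%). These shares are a description: a match is not a site, and the raised genes hold few matches of the rarer motifs (4 genes with a CArG box, 6 with the full element and 15 with TGANTCA).

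Feedback inhibitors of MAP kinase and receptor kinase signalling, which those cascades induce and which then shut them down, rose in 5 of 16 tested members and fell in 1, with a median of 0.24. Dusp6, a phosphatase that inactivates ERK in the cytoplasm, had a signal of 190.0 and 243 on the basal arrays and 915 and 804 on the stimulated arrays (1.92 ± 0.14, adjusted p = 9.4e-06). Errfi1, an inhibitor of the EGF receptor, rose from 201 and 153 to 604 and 388 (1.39 ± 0.19, adjusted p = 0.00127), and Socs5, a member of the cytokine signalling suppressors, from 892 and 1026 to 2115 and 1738 (0.99 ± 0.11, adjusted p = 0.000231). The stimulated arrays of these genes lay well above the basal arrays. Both lay above both basal arrays in 16.8% of all tested genes. Dusp5, the ERK phosphatase of the nucleus, went from 88.4 and 105 to 351 and 190.2 (1.29 ± 0.31, adjusted p = 0.0437), but kept its call in 11 of 26 alternative fits and measured 0.88 without stimulated replicate 1. Dusp14 rose by 0.70, and Lrig3, which belongs to a family of receptor kinase regulators, fell by 0.63 (kept in 10 of 26 alternative fits). Without both replicate 1 arrays, 3 of the 16 rose, with a median of 0.25.

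At the level of the receptor and its G proteins, F2r, which encodes PAR1, the main receptor for TRAP, went from 2768 and 2748 to 3964 and 4195 (0.56 ± 0.09, adjusted p = 0.00574), and it kept its call in 26 of 26 alternative fits. The PAR2 gene F2rl1 was at 72.3 and 44.9 on the basal arrays and 74.8 and 75.4 on the stimulated arrays and did not pass (0.31, adjusted p = 0.486). F2rl2 and F2rl3, which encode PAR3 and PAR4, were too dim to be tested, with signals of at most 21.9 on any of the 4 arrays. Of 24 tested genes for G protein subunits and RGS proteins, 2 rose and 2 fell, with a median of -0.01. Rgs2, which speeds the turning off of Gq, rose from 649 and 546 to 1186 and 886 (0.77 ± 0.17, adjusted p = 0.027) and Rgs16, which acts on Gi and Gq, from 570.0 and 459 to 1083 and 783 (0.83 ± 0.20, adjusted p = 0.0406). Gng11, a gamma subunit, fell from 181 and 207 to 118 and 118 (-0.64 ± 0.12, adjusted p = 0.0114), with both stimulated arrays nearly equal, and Gpsm1, which holds Gi alpha subunits in their inactive form, fell from 269 and 309 to 204 and 194 (-0.50 ± 0.12, adjusted p = 0.0428). Gpsm1 kept its call in 6 of 26 alternative fits and Rgs16 in 15 of 26. No gene for an alpha subunit that the toxin modifies was called; among them Gnai2, an alpha subunit of Gi, measured 0.11 (adjusted p = 0.629). None of the 24 was called without both replicate 1 arrays.

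Genes of cyclic AMP signalling and targets of its factor CREB rose in 3 of 29 tested members and none fell, at a median of 0.13. Akap12, a scaffold that tethers protein kinase A at the membrane, had a signal of 414 and 401 on the basal arrays and 3365 and 1503 on the stimulated arrays (2.42 ± 0.34, adjusted p = 0.00136). Stimulated replicate 1 was far above replicate 2, and the rise was 1.84 without replicate 1. Noct, a circadian gene induced by many stimuli, went from 111 and 75.9 to 646 and 502 (2.44 ± 0.19, adjusted p = 1.24e-05), and the clock repressor gene Per2 from 243 and 268 to 388 and 383 (0.57 ± 0.12, adjusted p = 0.021). Areg, an EGF receptor ligand and CREB target, was at 6.7 and 6.1 on the basal arrays and 38.2 and 17.5 on the stimulated arrays, below most tested genes, and did not pass (0.93, adjusted p = 0.102). Crem (0.44, adjusted p = 0.161) and Creb5 (0.64, adjusted p = 0.148) were not called either. With both replicate 1 arrays left out, 2 of the 29 rose and the list median was -0.01, and the list median was 0.17 on stimulated replicate 1 and -0.01 on replicate 2. Of 15 tested clock genes, which share Noct and Per2 with this list, 5 rose and 1 fell, with a median of 0.15. The core factor gene Bmal1 rose by 0.63, Bhlhe40 by 0.78 and Nfil3 by 0.80, and the output factor gene Dbp fell by 0.78. The fit without both replicate 1 arrays, had 1 of the 15 raised.

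Targets of serum response factor in the actin cytoskeleton rose in 3 of 29 tested members and none fell, at a median of 0.15. Ccn1, a secreted matrix-associated protein of early growth responses, went from 687 and 687 to 1268 and 1262 (0.87 ± 0.15, adjusted p = 0.00617), with almost no spread within either group. Enah, which lengthens actin filaments, rose by 0.59 and Tes, a focal adhesion protein gene, by 0.49. Without both replicate 1 arrays none of the 29 passed, at a median of 0.17. No contractile smooth muscle marker was called by limma among 18 tested (3 at an unadjusted p below 0.05; median 0.14). Myocd, the master coactivator of the contractile programme, went from 394 and 421 to 660.3 and 526 (0.52, adjusted p = 0.232).

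Among 24 tested growth factors and ligands 2 rose (1.69% of all tested genes did), with a median of 0.13; without both replicate 1 arrays 3 rose and 1 fell. Tslp, a cytokine that acts on dendritic cells and other immune cells, had a signal of 104 and 124 on the basal arrays and 609.8 and 408 on the stimulated arrays (1.99 ± 0.17, adjusted p = 2.44e-05). Hbegf, a ligand of the EGF receptor that is shed from the cell surface, rose from 363 and 388 to 978 and 784 (1.19 ± 0.12, adjusted p = 0.000124). In both, the lower stimulated array lay above the higher basal array by a wide margin, where 16.8% of all tested genes had such an order at any margin. The vasoconstrictor gene Edn1 was at 289.7 and 304 on the basal arrays and 368 and 559 on the stimulated arrays and missed the threshold (0.59, adjusted p = 0.124), as did Vegfa (-0.33). In the 19 tested genes of haemostasis, proteases and matrix remodelling 2 rose, with a median of -0.02; without both replicate 1 arrays 1 rose and 1 fell. Plaur, the receptor that focuses urokinase on the cell surface, rose from 247 and 236 to 923 and 752 (1.72 ± 0.16, adjusted p = 5.53e-05) and the protease gene Adamts1 from 3101 and 3089 to 4492 and 3975 (0.45 ± 0.09, adjusted p = 0.0222). Serpinb2, an inhibitor of plasminogen activators, was at 16.5 and 11.3 on the basal arrays and 189.8 and 39.3 on the stimulated arrays and did not pass (1.84 ± 0.47, adjusted p = 0.0581), its stimulated arrays lying far apart. Flt1, a VEGF receptor gene that stands among the endothelial markers, rose from 216 and 236 to 760.3 and 431 (1.28 ± 0.21, adjusted p = 0.00585); the other 2 endothelial genes tested did not pass.

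Of 17 tested chemokines, cytokines and adhesion molecules, 4 rose and none fell: Cxcl1, Tslp, Ptgs2 and Il15. The list median was 0.20, made of -0.03 on stimulated replicate 1 and 0.60 on replicate 2. Cxcl1, a neutrophil-attracting chemokine, had a signal of 456 and 417 on the basal arrays and 1238 and 6275 on the stimulated arrays (2.64 ± 0.60, adjusted p = 0.0335). The higher stimulated array had several times the signal of the lower, and the rise measured 1.47 without replicate 2 and 3.80 without replicate 1. Ccl2, which attracts monocytes, was at 4004 and 3397 on the basal arrays and 1434 and 6721 on the stimulated arrays and did not pass (-0.24, adjusted p = 0.874) (the groups overlapped); it measured 0.86 without stimulated replicate 1. Ptgs2, the inducible cyclooxygenase, rose from 995 and 1188 to 2744 and 2254 (1.18 ± 0.12, adjusted p = 0.000127) and Il15, a lymphocyte cytokine gene, from 295 and 294 to 414 and 536 (0.65 ± 0.13, adjusted p = 0.0162). When both replicate 1 arrays were left out, 7 of the 17 rose and the median was 0.60.

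NF-kB subunits and feedback genes rose in 3 of 19 tested members and none fell, at a median of 0.34 (0.05 on stimulated replicate 1 and 0.54 on replicate 2). Nfkbiz, an inducible nuclear regulator of NF-kB, went from 248 and 273 to 537 and 1286 (1.62 ± 0.36, adjusted p = 0.0317), Cebpd, a factor of acute inflammation, from 645 and 503 to 966 and 1399 (1.01 ± 0.23, adjusted p = 0.0336), and Tnfaip3, which removes ubiquitin to end NF-kB signalling, from 98.3 and 90 to 162 and 276 (1.05 ± 0.25, adjusted p = 0.0437). Stimulated replicate 2 was higher in all 3. Nfkbiz kept its call in 17 of 26 alternative fits, Cebpd in 17 of 26 and Tnfaip3 in 14 of 26. Without both replicate 1 arrays, 6 of the 19 rose. Nfkbiz measured 2.24 without stimulated replicate 1 and 1.0 without replicate 2, and Tnfaip3 1.41 and 0.69. Acute-phase and complement genes, whose signals split the arrays, had no call by limma among 10 tested (5 at an unadjusted p below 0.05), and all 10 had negative changes, with a median of -0.71, or -1.29 on stimulated replicate 1 and -0.16 on replicate 2. Lbp, which binds bacterial lipopolysaccharide, was at 1695 and 1679.7 on the basal arrays and 617 and 1571 on the stimulated arrays (-0.76, adjusted p = 0.28).

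The aryl hydrocarbon receptor, a ligand-activated factor of xenobiotic metabolism, and its targets were listed after some of them were known to rise in these data, so their count is a description. Of 8 tested, 6 rose, none fell, and the median was 0.68 (0.67 and 0.71 on the 2 stimulated arrays). Tiparp, a feedback repressor of the receptor, had a signal of 349.8 and 347 on the basal arrays and 1122 and 1214 on the stimulated arrays (1.70 ± 0.10, adjusted p = 5.71e-07). Ahrr, its other repressor, rose from 226 and 216 to 543 and 583 (1.29 ± 0.13, adjusted p = 9.99e-05), Nqo1, a quinone reductase, from 896 and 981 to 2296 and 2124 (1.22 ± 0.16, adjusted p = 0.00108), and the cytochrome gene Cyp1b1 from 5102 and 4728 to 8009 and 8831 (0.77 ± 0.10, adjusted p = 0.000948). The stimulated arrays agreed closely in each, and Tiparp kept its call in 26 of 26 alternative fits, Ahrr in 26 of 26, Nqo1 in 26 of 26 and Cyp1b1 in 26 of 26. The receptor gene Ahr itself rose from 83.6 and 88.8 to 143 and 131 (0.58 ± 0.14, adjusted p = 0.0464, a call kept in 7 of 26), and Nfe2l2, a factor of the oxidative stress response that also drives Nqo1, from 1607 and 1454 to 2109 and 2299 (0.52 ± 0.09, adjusted p = 0.00758). The partner gene Arnt measured -0.18 (adjusted p = 0.645). In the fit without both replicate 1 arrays 5 of the 8 rose, at a median of 0.71.

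Regulators of mRNA decay rose in 5 of 20 tested members and none fell, at a median of 0.05. They were Noct, Edc3 (0.52) and 3 members of a family of proteins that bind AU-rich elements and mark short-lived transcripts for destruction. Noct is also counted in the cyclic AMP and clock lists. Zfp36 rose from 375 and 380.1 to 795 and 696 (0.95 ± 0.10, adjusted p = 0.000127), Zfp36l1 from 913 and 874 to 1511 and 2059 (0.97 ± 0.15, adjusted p = 0.00304) and Zfp36l2 from 1157 and 1133 to 2611 and 2152 (1.04 ± 0.13, adjusted p = 0.000653). Their groups did not overlap, and both stimulated arrays lay above both basal arrays in 16.8% of all tested genes. Of these 5 genes Edc3 kept its call in 20 of 26 alternative fits and the others in 26 of 26. Of 17 heat shock genes 3 rose, all of the family that brings substrates to HSP70: Dnajb1 (0.71), Dnajb4 (0.61) and Dnajb5 (0.82). The median of that list was 0.18, and 1 of the 17 rose without both replicate 1 arrays. Among 48 chromatin and splicing regulators 2 rose, with a median of 0.03: Clk1, a kinase of splicing factors, from 1031 and 932 to 1836 and 1832 (0.89 ± 0.10, adjusted p = 0.000213), and the splicing factor gene Luc7l3 by 0.53.

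Growth arrest genes and targets of FoxO factors moved in both directions, with 2 of 27 tested raised and 3 lowered and a median of -0.07. Klf15, a metabolic and growth-restraining factor of muscle, had a signal of 249 and 353 on the basal arrays and 56.3 and 90.3 on the stimulated arrays (-1.83 ± 0.21, adjusted p = 0.000334). Ppp1r3b, which targets a phosphatase to glycogen, fell from 99.7 and 86.1 to 36.2 and 43.1 (-0.97 ± 0.17, adjusted p = 0.00848), and Klhl24 fell by 0.61 (kept in 6 of 26 alternative fits). Sgk1, a kinase that inactivates FoxO factors, rose from 55.2 and 85 to 539 and 276 (2.25 ± 0.28, adjusted p = 0.000529), and its rise was 1.79 without stimulated replicate 1. The other called member, the pseudokinase gene Trib2, rose by 0.75, or 0.44 without stimulated replicate 1, and kept its call in 10 of 26 alternative fits. The FoxO genes and targets Foxo3 (-0.51), Ccng2 (-0.65) and Gadd45a (-0.53) did not pass. Without both replicate 1 arrays, 1 rose and 1 fell.

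Targets of ATF4, the factor of the integrated stress response, fell in 3 of 24 tested members and none rose, with a median of -0.05. Trib3, a pseudokinase that restrains ATF4, had a signal of 531 and 554 on the basal arrays and 191 and 188 on the stimulated arrays (-1.44 ± 0.20, adjusted p = 0.00121). Chac1, which degrades glutathione, fell from 735 and 681 to 273 and 310.0 (-1.24 ± 0.14, adjusted p = 0.000271) and Sesn2, an inhibitor of the growth kinase mTORC1, from 822 and 771 to 360.1 and 422 (-1.0 ± 0.14, adjusted p = 0.00152). The 2 arrays of a group lay close together in each gene, and the 3 calls also stood without both replicate 1 arrays. Atf4 itself (-0.25) and its target Ddit3 (-0.59, adjusted p = 0.123) did not pass.

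Genes of BMP, TGF-beta and Notch signalling had 3 rises and 2 falls among 27 tested, with a median of 0.00. Bambi, which blocks BMP and TGF-beta receptors at the membrane, had a signal of 342 and 332 on the basal arrays and 88.5 and 72.9 on the stimulated arrays (-1.87 ± 0.17, adjusted p = 4.53e-05). The limb and heart factor gene Tbx5 fell by 0.64 (kept in 9 of 26 alternative fits). Tgif1, which encodes a repressor that binds Smad proteins, rose from 605 and 537 to 979 and 995 (0.78 ± 0.11, adjusted p = 0.0013) and Skil, which encodes another Smad-binding repressor, from 1498 and 1469.9 to 2073 and 2187 (0.52 ± 0.09, adjusted p = 0.0103), as did the BMP effector gene Smad1 (0.44). Outside this list, Boc, a coreceptor of Hedgehog, fell from 675 and 749 to 343 and 278 (-1.16 ± 0.12, adjusted p = 0.000166) and Wnt9a, a Wnt ligand gene, from 175 and 229.5 to 62.4 and 86.8 (-1.27 ± 0.17, adjusted p = 0.00114). Bambi kept its call in 26 of 26 alternative fits, Boc in 26 of 26 and Wnt9a in 26 of 26. Of the 27, 2 rose and 2 fell without both replicate 1 arrays.

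Of 18 tested potassium and calcium channel genes 2 fell and none rose. Kcne4, a subunit that inhibits voltage-gated potassium channels, went from 156 and 209 to 68.8 and 49.2 (-1.4 ± 0.19, adjusted p = 0.00114), and Kcnk2, a mechanosensitive potassium channel, from 1478 and 1508 to 1138 and 1135 (-0.39 ± 0.10, adjusted p = 0.0482), a call kept in 6 of 26 fits. Small GTPases and their regulators had 3 rises and 2 falls among 24 tested, with a median of 0.00. Rasl12, a Ras-like GTPase, had a signal of 192 and 128 on the basal arrays and 19.5 and 45.5 on the stimulated arrays (-1.89 ± 0.31, adjusted p = 0.00551). The change was -1.49 without stimulated replicate 1, and the call was kept in 22 of 25 alternative fits. Rras2, which activates phosphatidylinositol 3-kinase, rose from 1239 and 1091 to 2080.1 and 1830.2 (0.74 ± 0.11, adjusted p = 0.00199), the exchange factor gene Arhgef3 from 131 and 118 to 232 and 271 (0.93 ± 0.13, adjusted p = 0.00165) and Rnd1 from 289 and 426 to 869 and 564 (0.96 ± 0.21, adjusted p = 0.029). Arhgef2, an exchange factor bound to microtubules, fell by 0.44 (kept in 10 of 26 alternative fits). In the fit without both replicate 1 arrays 1 channel gene fell, and 2 of the 24 GTPase genes rose and 2 fell.

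In the 29 tested genes of S and M phase none passed limma's test (5 at an unadjusted p below 0.05), and the median of 0.29 was 0.63 on stimulated replicate 1 and -0.03 on replicate 2. None of 17 regulators of G1 passed (1 at an unadjusted p below 0.05; median 0.11) and none of 11 reference genes (2 at an unadjusted p below 0.05; median 0.05). Of 25 collagen and elastic fibre genes Loxl2, a crosslinking enzyme gene, rose by 0.45, a call kept in 10 of 26 alternative fits. In 18 cholesterol genes Insig1, a sterol sensor, rose by 0.56 (kept in 23 of 26) and Abca1, which exports cholesterol, fell by 0.53 (kept in 15 of 26). Over all tested genes 2.96% were called at the adjusted threshold, and the share at an unadjusted p below 0.05 is not given.

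**Figure D4:**
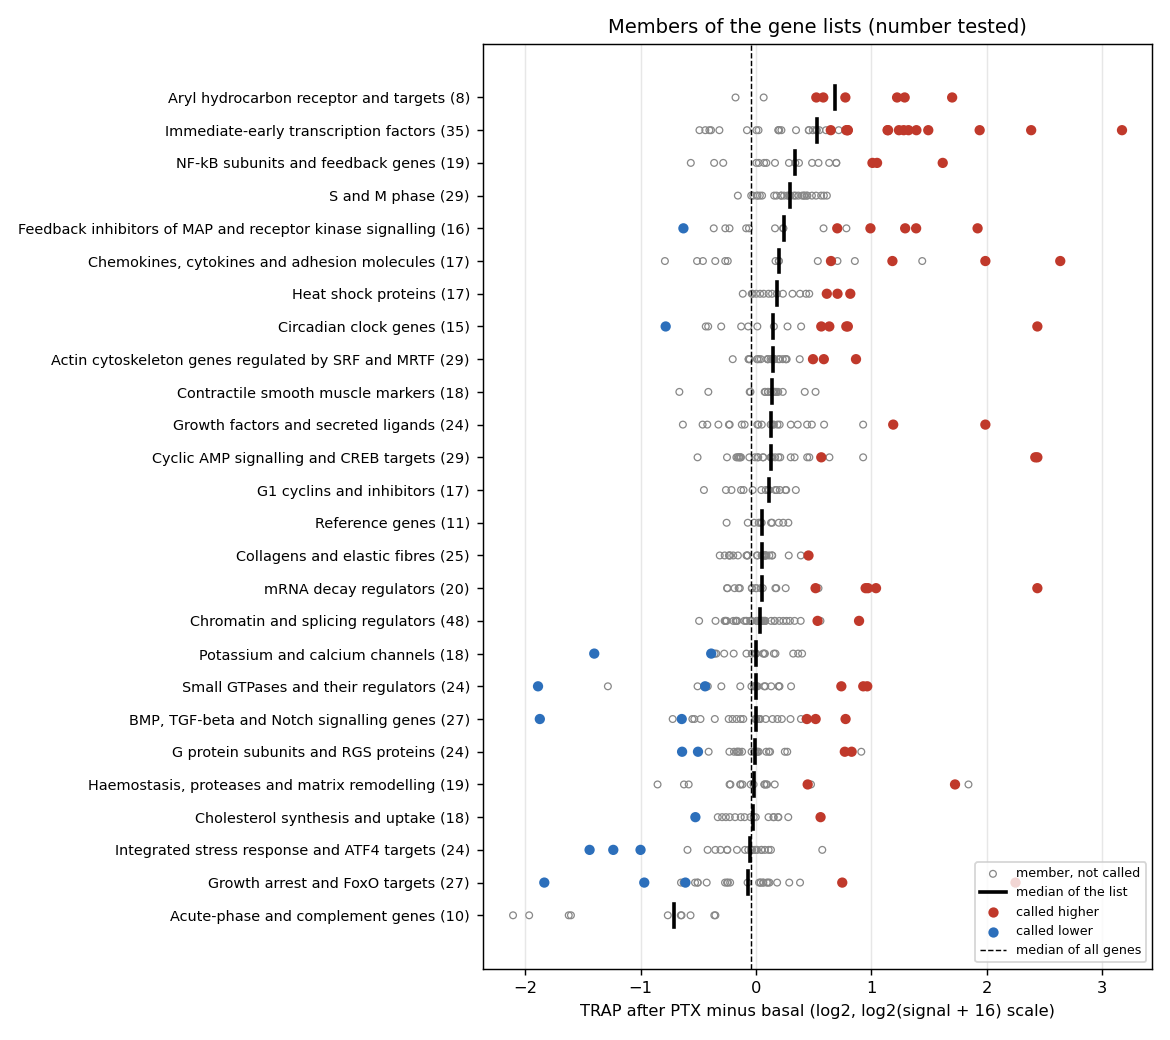
Change (log2) of each tested member of the 26 gene lists with at least 8 tested members, with called members filled in red (higher) or blue (lower), the list median as a black bar and the median of all genes (-0.04) as a dashed line. Aryl hydrocarbon receptor targets (median 0.68, listed after values were known) and immediate-early factors (0.53) lie furthest right and the acute-phase list (-0.71, no member called) furthest left.

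The response was set beside those to TRAP without the toxin and to thrombin, each measured against basal arrays of its own. Of the 167 raised genes 112 were also raised by TRAP (67.1% of these and 52.6% of the 213 that TRAP raised, which are 2.15% of tested genes) and 89 by thrombin (53.3%, and 30.3% of 294, which are 2.97%). Among the 126 lowered genes the numbers were 44 for TRAP (34.9%, and 24.6% of 179, which are 1.81%) and 41 for thrombin (32.5%, and 15.6% of 263, which are 2.65%). All 3 fits share 1 estimate of the spread. Among raised genes 74 were called upward in all 3 comparisons, with Fosl1, Noct, Egr1, Plaur and Hbegf among them, and 40 (24%) in this comparison without a call in the same direction in either of the others. For lowered genes these numbers were 21 and 62 (49.2%). A gene without a call elsewhere could still move the same way. With TRAP, 160 of the 167 raised and 116 of the 126 lowered genes had the same sign, and with thrombin 147 and 113. The share of all genes with the same sign is not given.

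A test of the difference between the responses with and without the toxin called 24 of 18625 probe sets, all higher after PTX (0.129%), and by gene 9 of 9906 (0.0909%). At an unadjusted p below 0.05, 930 probe sets were higher and 612 lower. In 8 of the 9 genes TRAP alone lowered the gene, and none of the 9 was lowered after PTX. Id2 measured -0.44 after PTX and -1.95 with TRAP alone (adjusted p of the difference = 0.0356). Arid5b, a chromatin-binding factor gene, measured 0.03 and -1.36 (adjusted p = 0.0261), Nfix, a developmental factor gene, 0.01 and -1.18 (adjusted p = 0.0158), and Herc1, a giant ubiquitin ligase gene, 0.26 and -1.18 (adjusted p = 0.0261). Nuf2, a kinetochore gene, rose by 0.75 after PTX and measured -0.61 (adjusted p = 0.0386). Loxl2 rose by 0.45 after PTX and measured -0.52 with TRAP (adjusted p = 0.0328). In each of these 6 genes both basal arrays were lower here than both basal arrays before TRAP alone: Nuf2 was at 548 and 496 before TRAP alone and at 279 and 253 here, Id2 was at 256 and 346 before TRAP alone and at 156 and 162 here and Arid5b was at 1236 and 1241 before TRAP alone and at 906 and 604 here. The part of these starting levels in the difference of responses was not tested. The values after PTX of Arid5b and Nfix lay near 0, with a sign that differs between fits. The count of 24 probe sets was 9 without both replicate 1 arrays (8 higher and 1 lower), and 0 without stimulated replicate 1, basal replicate 2 of this comparison, basal TRAP replicate 1 or stimulated TRAP replicate 2. The leading genes of the comparison did not pass: the difference was -0.32 for Fosl1, 1.0 for Akap12, -2.13 for Cxcl1, 1.08 for Ccn1 and -1.74 for Rasl12, and the median standard error of such a difference was 0.227. A difference that missed the threshold does not show that the responses were alike.

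Against the thrombin response 35 probe sets were higher (0.188%) and 55 lower (0.295%), and by gene 21 (0.212%) and 33 (0.333%). Tslp, Tiparp, Ahrr, Nqo1 and Cyp1b1 rose after PTX and TRAP and measured 0.05, -0.15, -0.21, -0.06 and -0.27 with thrombin, with adjusted p of the difference from 6.48e-05 (Tiparp) to 0.0268 (Nqo1). With TRAP alone they measured 1.76, 1.54, 1.16, 0.60 and 0.98. Il15 rose by 0.65 and measured -1.06 with thrombin (adjusted p of the difference = 0.00121). Trib3 and Chac1 fell and measured 0.05 and 0.35 with thrombin (adjusted p = 0.0311 and 0.00287). Egr1 rose by 2.38 against 1.60 (adjusted p = 0.0388). Lower than with thrombin were Ptgs2 and Arc: Ptgs2 rose by 1.18 against 3.03 (adjusted p = 0.000402), and Arc, an activity-regulated cytoskeletal gene, measured 0.72 against 2.74 (adjusted p = 0.0122). Basal levels differed between the experiments, in both directions. Tiparp was at 1696.5 and 1732 before thrombin and at 349.8 and 347 here, and Nqo1 at 1811.5 and 2845 against 896 and 981. Trib3 was at 201.5 and 224 before thrombin and at 531 and 554 here. Chac1 was at 263 and 259.5 against 735 and 681, and Ahrr at 86.1 and 91.9 against 226 and 216. The part of these starting levels in the differences was not tested. The count of 90 was 20 without stimulated thrombin replicate 1 and 195 without basal thrombin replicate 2. Agent, experiment and culture differ together between these comparisons and cannot be told apart, and arrays of this experiment correlated with those of the thrombin experiment at r from 0.916 to 0.934, below the r of at least 0.972 with those of the TRAP experiment.

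**Figure D5:**
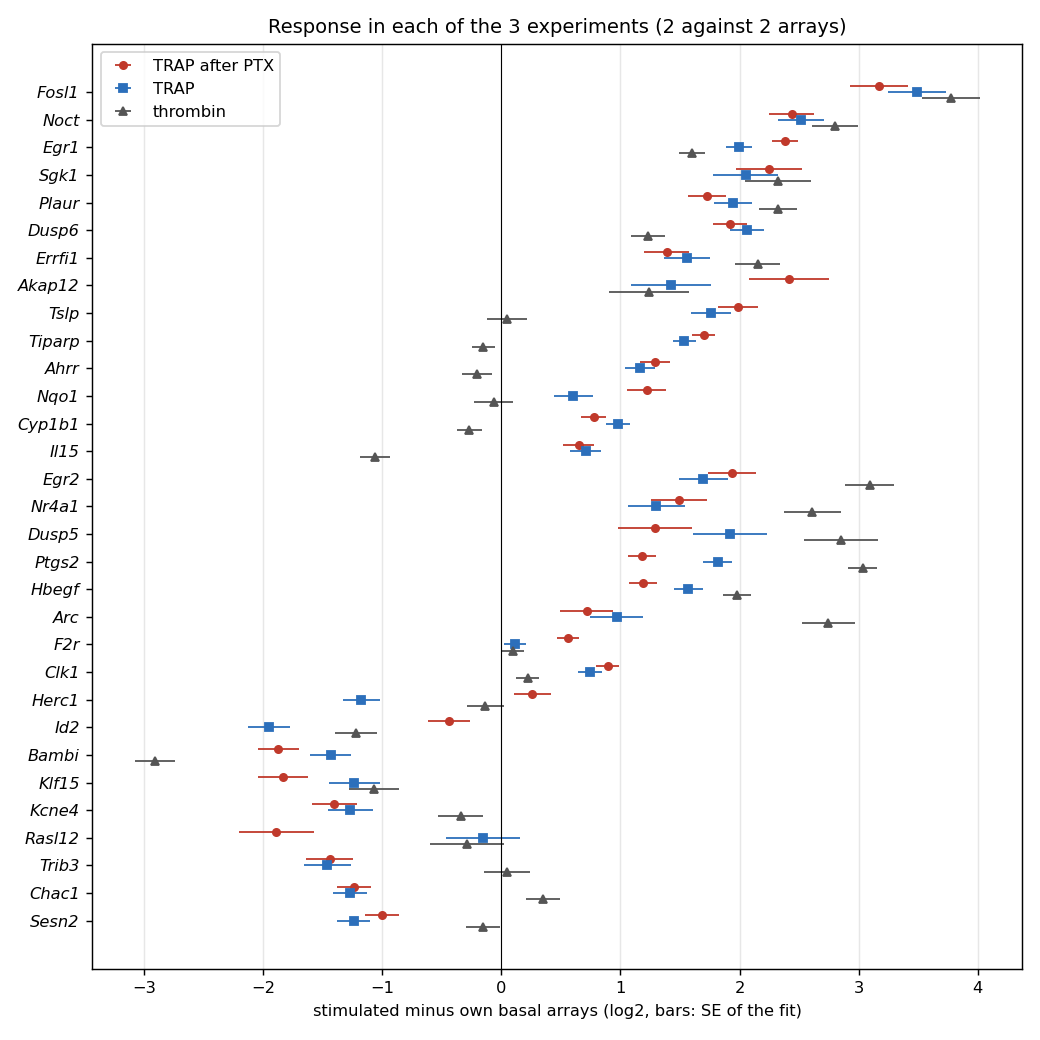
Change (log2, bars are the standard error of the fit) of 31 genes against their own basal arrays after TRAP and PTX (red circles), TRAP (blue squares) and thrombin (grey triangles), 2 against 2 arrays each. Fosl1 rose by 3.17, 3.49 and 3.78 in the 3 experiments, while Tiparp rose by 1.70 and 1.54 and measured -0.15 with thrombin.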

How the data were processed

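Each array value is a signal on a linear intensity scale that the authors deposited, computed with GCOS 1.4 per the submitters' processing notes; the trimmed mean (outer 2% left out) was 200.1 on the arrays, with medians from 39.5 to 53.4. The pixel data, detection calls and further steps are not given in the sources used here. The number of arrays, 2 a group, limits the precision. Of 31099 probe sets 57 controls were left out, and the 18625 whose mean log2 signal exceeded the 40th percentile were kept. Signals were turned into log2(signal + 16) and fitted with limma 3.58.1 in R 4.3.3 (lmFit, then eBayes with an intensity trend) over all 12 arrays in 6 groups, without a replicate block; responses and their differences were contrasts, with Benjamini-Hochberg adjustment over all kept probe sets and a two-sided threshold of 0.05. The test was checked on simulated data. Platform annotation gave 1 symbol to 20826 probe sets, several to 436 and none to 9780, and 20758 matched RefSeq by gene number. A gene is its brightest kept probe set. The 99 called genes with others had 132 of them, of which 24 were called with the same sign. Another 9 had the opposite sign and 0 of these were called. Among named genes, Loxl2 (-0.08) and Tes (-0.11) each had a probe set of opposite sign. Same-numbered basal and stimulated arrays did not all deviate together (r of 0.0217 in this comparison, 0.104 for TRAP and 0.134 for thrombin). The median standard error of a response was 0.16.

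Genes named are the 25 largest rises and 15 largest falls among called genes with separated groups, up to 4 members a list by p, the thrombin receptors, the largest differences between responses, and genes that show the sets of arrays. Older symbols in the lists were read through RefSeq's synonyms. Other list members were added after their values were seen. The comparison and the gene lists were chosen with earlier results of these data known. Alternatives changed the pseudocount, filter, scaling, variance model, arrays in the fit and blocks.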

Additional observations from a re-analysis of the deposited data

Results flagged for a closer look

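A test of the difference between 2 responses passed for the following named genes (limma, adjusted p below 0.05; log2 difference, 2 against 2 arrays in each experiment). Against the response to TRAP alone, the response after PTX was higher in Id2 (1.51), Herc1 (1.44), Arid5b (1.4), Nuf2 (1.36), Nfix (1.19) and Loxl2 (0.97). Nuf2 is a division gene, and genes of that kind were higher on stimulated replicate 1 than on replicate 2 after PTX.

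Against thrombin, the response after PTX was higher in Tslp (1.94), Tiparp (1.85), Il15 (1.71), Ahrr (1.49), Lnc215 (1.39), Nqo1 (1.29), Cyp1b1 (1.04) and Egr1 (0.78). It was lower in Zfp36 (-0.82), Vegfa (-0.98), Boc (-1.16), Trib3 (-1.49), Chac1 (-1.59), Ptgs2 (-1.85) and Arc (-2.03). Tiparp had the smallest adjusted p of these differences (6.48e-05). Starting levels differed in several of these genes: Boc was at 81.8 and 73.2 before thrombin and at 675 and 749 here.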

How the results depend on the processing

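The 313 probe sets higher and 192 lower after TRAP and PTX became 197 and 137 without the intensity trend, 195 and 65 in a fit of the 4 arrays alone, and 121 and 45 without stimulated replicate 1 of both TRAP experiments. The lower count was 120 with no filter, 94 with arrays centred on their median and 92 with array weights. Other fits gave larger counts: 418 higher with arrays centred on their median, 345 and 240 with log2(signal + 64), and 331 and 269 with the 4 basal arrays of both TRAP experiments as control. Leaving out 1 array gave 110 to 330 higher and 39 to 210 lower. The 24 probe sets that differed from the TRAP response became 13 with no filter, 0 without the intensity trend (by limma; 898 higher and 614 lower at an unadjusted p below 0.05), 1 in a fit of the 8 arrays of the TRAP experiments, 9 without both replicate 1 arrays, and 0 to 47 when 1 array was left out. The 90 that differed from thrombin became 26 without the intensity trend, 154 with the sets as a block and 20 to 195 when 1 array was left out. The replicate block gave 298 higher and 171 lower; the numbers are shared but did not pair the arrays. Of 100 called genes named, 49 kept their call in every alternative fit and 0 changed sign.

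Signs turned for uncalled genes. With the 4 basal arrays of both TRAP experiments as control, Arid5b measured -0.33, Ccl2 1.05, Mki67 -0.07, Nfix -0.22 and Top2a -0.12. With the sets as a block Ccl2 measured 0.82, Mki67 -0.04 and Top2a -0.19. Without both replicate 1 arrays Arid5b measured -0.07, Ccl2 0.86, Mki67 -0.05 and Top2a -0.23. Nfix measured -0.01 after quantile normalization. Leaving out 1 array gave from -0.25 to 0.32 for Arid5b, from -1.35 to 0.86 for Ccl2, from -0.02 to 0.25 for Gnai2, from -0.05 to 0.74 for Mki67, from -0.13 to 0.15 for Nfix and from -0.23 to 0.67 for Top2a. The cause of these changes was not tested. Dim probe sets have no order near background, and 2 arrays a group limit what can be called.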
